A study of Mus musculus with 8 samples.

Results

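Desmosomes are button-like junctions that hold the cells of a stratified epithelium together and tie them to the keratin filaments inside each cell. Desmogleins and desmocollins are cadherins that bind across the gap between cells. Plakoglobin and the plakophilins, which are armadillo proteins, link the cadherin tails to desmoplakin, and desmoplakin binds the keratin filaments. The esophagus is lined by such an epithelium, and in stratified epithelia the desmosomal cadherins change along the path from the basal layer to the surface.

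The genes described here are 10 components of this junction, found by symbol among the 32849 symbols of the count table: the desmogleins Dsg1a, Dsg2 and Dsg3, the desmocollins Dsc2 and Dsc3, plakoglobin (Jup), the plakophilins Pkp1 and Pkp3, desmoplakin (Dsp) and Perp, a tetraspan membrane protein of desmosomes. All 10 were found, and all 10 passed the filter on low counts. The libraries came from frozen esophagus of MGL KO mice, which lack monoacylglycerol lipase, the enzyme (gene Mgll) that breaks down the endocannabinoid 2-arachidonoylglycerol, and from MGL WT mice, bred as littermates per the study's methods, with 4 libraries of each genotype and no treatment named for either. The study compared the genotypes at baseline, and the labels give no age, sex or strain for any library, while the methods name adult mice of both sexes for the study as a whole. Transcripts of 4 Y-linked genes were present in all 8 libraries, at a mean log2 CPM between 5.29 and 5.51, as in male tissue. Xist, the transcript of the inactive X of females, had at most 14 counts outside MGL KO replicate 2, which had 69. The study describes this as a comparison of mouse esophagi and gives n = 4 for it. Nothing in the labels ties the 4 libraries of a genotype to separate animals, so p-values measure the spread between these libraries, part of which may be technical.

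Mgll itself fell from 81.2 ± 9.97 to 13.7 ± 1.54 normalized CPM (counts scaled to the depth of each library; mean ± SD, n = 4 libraries for each genotype here and below; log2 fold change -2.57, SE 0.13, adjusted p = 0.000133 in edgeR's quasi-likelihood test), as the genotype labels say. The tissue was whole esophagus, and both epithelial and muscle transcripts were abundant. The summed level of 7 skeletal muscle genes lay between 28340 and 72830 CPM across the libraries, that of 6 basal squamous genes between 2868 and 5435 CPM, and that of 8 differentiated squamous genes between 2182 and 14650 CPM. Of these 8, Rhcg had 0 counts in all libraries and Crnn 1 count in all, and the other 6 passed the filter. MGL KO replicate 2 and WT replicate 3 had the lowest basal and differentiated sums of their groups and the highest skeletal muscle sums, 72830 and 58060 CPM. MGL KO replicate 4 held transcripts of other tissues: 5 airway secretory genes summed to 8385 CPM against 50.8 CPM in MGL KO replicate 1 and at most 2.85 CPM in the other 6 libraries, 4 cardiac muscle genes to 1776 against at most 70.1 CPM, and 5 simple epithelium genes to 481 against at most 84.5 CPM. MGL KO replicate 2 stood apart too, with Krt8, a keratin of simple epithelia, at 43.6 CPM against at most 4.52 CPM in the 6 libraries other than replicates 2 and 4, and with 43 counts of Pax8 against at most 3 and 69 counts of Xist against at most 14 elsewhere. In such bulk tissue, fewer epithelial cells and less RNA per epithelial cell cannot be told apart.

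None of the 10 desmosome genes was called different between the genotypes. In edgeR's quasi-likelihood test, 0 of 10 passed an adjusted p of 0.05, with adjusted p between 0.731 and 0.993, and 0 of 10 had an unadjusted p under 0.05. Over the 14864 genes tested, 0.0471% were called and 8.65% had an unadjusted p under 0.05. In 0 of 10 did the 4 MGL KO libraries lie entirely on one side of the 4 WT libraries, against 6.02% of all tested genes. The log2 fold change was below 0 for 5 of the 10, against 47.0% of all tested genes, and its median over the 10 was -0.04 against 0.02 over all tested genes. Other tests gave the same count of 0 of 10: edgeR's exact test, which called 0.431% of the kept genes and 0.185% of all genes with a count, DESeq2, which called 0.928%, and limma-voom with sample quality weights, which called 0.168%. A further fit left out MGL KO replicates 2 and 4, chosen after the data were seen, and called 2 of 15277 genes. It kept WT replicate 3, the WT library with the lowest squamous and highest skeletal muscle sums, so only the MGL KO group lost its low library. In that fit the count was again 0 of 10, and the median over the 10 was 0.185. Leaving out single libraries moved that median between -0.268, without MGL KO replicate 1, and 0.192, without MGL KO replicate 2, and it was -0.211 without WT replicate 3. The 95% intervals of the log2 fold changes were wide, and a p that misses the threshold does not show that the genotypes were alike.

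**Figure D1:**
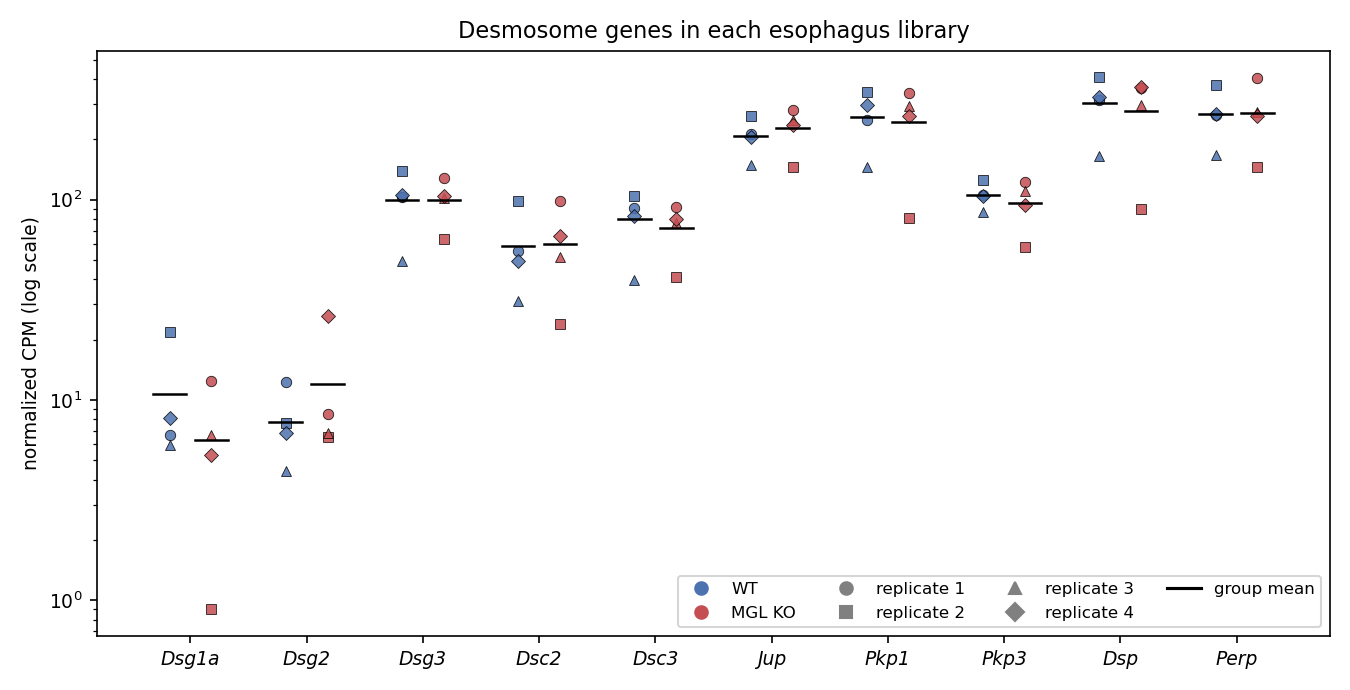
Normalized CPM of each of the 10 desmosome genes (vertical axis, log scale) in the 4 WT and 4 MGL KO libraries, 1 point for each library with the replicate number as its shape and a bar at the group mean. For every gene the points of both genotypes overlap, and MGL KO replicate 2 is the lowest MGL KO library for all 10 genes.

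Among the desmogleins, Dsg3, which is typical of the lower layers of stratified epithelia, was the most abundant per length. It was read at 129, 63.3, 102 and 104 CPM in MGL KO replicates 1 to 4 and at 102, 139, 49.2 and 105 CPM in WT replicates 1 to 4. The groups overlapped throughout, with low values in MGL KO replicate 2 and WT replicate 3. The means were 99.5 ± 27.1 CPM in MGL KO and 98.9 ± 37.2 CPM in WT (log2 fold change 0.01, SE 0.31, 95% interval -0.69 to 0.71, adjusted p = 0.993).

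Dsg1a, 1 of the mouse genes for desmoglein 1, the cadherin that builds up in the upper layers and in cornified epithelia, was sparse and uneven. It had 12.4, 0.90, 6.66 and 5.28 CPM in the MGL KO libraries and 6.69, 21.9, 5.98 and 8.15 CPM in the WT libraries. MGL KO replicate 2 held only 10 counts and WT replicate 2 held 383, and the remaining libraries of both genotypes lay among each other. The means were 6.32 ± 4.76 CPM in MGL KO and 10.7 ± 7.51 CPM in WT (log2 fold change -0.75, SE 0.67, 95% interval -2.26 to 0.77, adjusted p = 0.755). The estimate stayed below 0 whichever library was left out, between -1.30 and -0.13, the last without WT replicate 2. Of the 50-base windows of the Dsg1a transcripts, 35.0% also occur in another gene, among them Dsg1b and Dsg1c, so how its reads were assigned is uncertain. Summed over Dsg1a and Dsg1b, the level was 19.1, 1.99, 10.8 and 8.43 CPM in MGL KO and 10.7, 32.1, 8.42 and 13.4 CPM in WT, again overlapping.

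Dsg2, the desmoglein of simple epithelia, heart and the lower layers of stratified epithelia, had 8.45, 6.50, 6.84 and 26.1 CPM in MGL KO and 12.2, 7.71, 4.41 and 6.85 CPM in WT. A single library, MGL KO replicate 4, stood above all the others, and it is the library with the cardiac, airway and simple epithelium transcripts. The means were 12.0 ± 9.45 CPM in MGL KO and 7.79 ± 3.26 CPM in WT (log2 fold change 0.62, SE 0.50, 95% interval -0.51 to 1.75, adjusted p = 0.731). Without that library the log2 fold change was -0.10. The part of these other transcripts in the Dsg2 value was not tested.

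The desmocollins gave the same picture as Dsg3. Dsc3, the desmocollin typical of the basal layers, had 91.8, 41.2, 76.3 and 80.4 CPM in MGL KO and 91.0, 104, 39.8 and 83.0 CPM in WT (log2 fold change -0.13, SE 0.32, 95% interval -0.85 to 0.58, adjusted p = 0.912). Dsc2, found in simple and stratified epithelia alike, had 98.5, 23.8, 51.4 and 65.9 CPM in MGL KO and 55.1, 98.3, 31.3 and 49.4 CPM in WT (log2 fold change 0.04, SE 0.44, 95% interval -0.96 to 1.03, adjusted p = 0.985). For both genes the lowest libraries were MGL KO replicate 2 and WT replicate 3, and the remaining libraries of both genotypes overlapped.

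Plakoglobin, the product of Jup, is shared between desmosomes and adherens junctions. Jup had 279, 145, 249.5 and 235 CPM in MGL KO and 214, 261, 149 and 205 CPM in WT, so that each genotype held 1 low library. The means were 227 ± 57.9 CPM in MGL KO and 207 ± 45.8 CPM in WT (log2 fold change 0.13, SE 0.23, 95% interval -0.38 to 0.65, adjusted p = 0.874). Its estimate stayed above 0 whichever library was left out, between 0.01 and 0.30.

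Pkp1, the plakophilin of the upper layers of stratified epithelia, had 339.7, 81.1, 292 and 261 CPM in MGL KO and 248, 344, 145 and 297 CPM in WT (log2 fold change -0.09, SE 0.41, 95% interval -1.02 to 0.85, adjusted p = 0.961). Pkp3, which is present in nearly all layers and in simple epithelia too, had 123, 57.7, 110.1 and 93.6 CPM in MGL KO and 105, 125, 86.8 and 105 CPM in WT (log2 fold change -0.13, SE 0.22, 95% interval -0.63 to 0.36, adjusted p = 0.866). Both overlapped between the genotypes, and MGL KO replicate 2 was further from the rest for Pkp1, at 27.8% of the median of the other MGL KO libraries, than for Pkp3, at 52.4%.

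Desmoplakin, the link to keratin, had 362, 89.8, 297 and 364 CPM in MGL KO and 314, 407, 164 and 325 CPM in WT for Dsp. MGL KO replicate 2 fell below every WT library, and the other 3 lay inside the WT range. The means were 278 ± 129 CPM in MGL KO and 303 ± 101 CPM in WT (log2 fold change -0.12, SE 0.42, 95% interval -1.08 to 0.84, adjusted p = 0.941). Perp, which desmosomes of stratified epithelia need for firm adhesion and which is also a p53 target, had 405, 145, 273 and 261 CPM in MGL KO and 264, 374, 167 and 267 CPM in WT (log2 fold change 0.02, SE 0.32, 95% interval -0.71 to 0.74, adjusted p = 0.990). Its groups overlapped, with the highest library in MGL KO and the lowest there too.

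**Figure D2:**
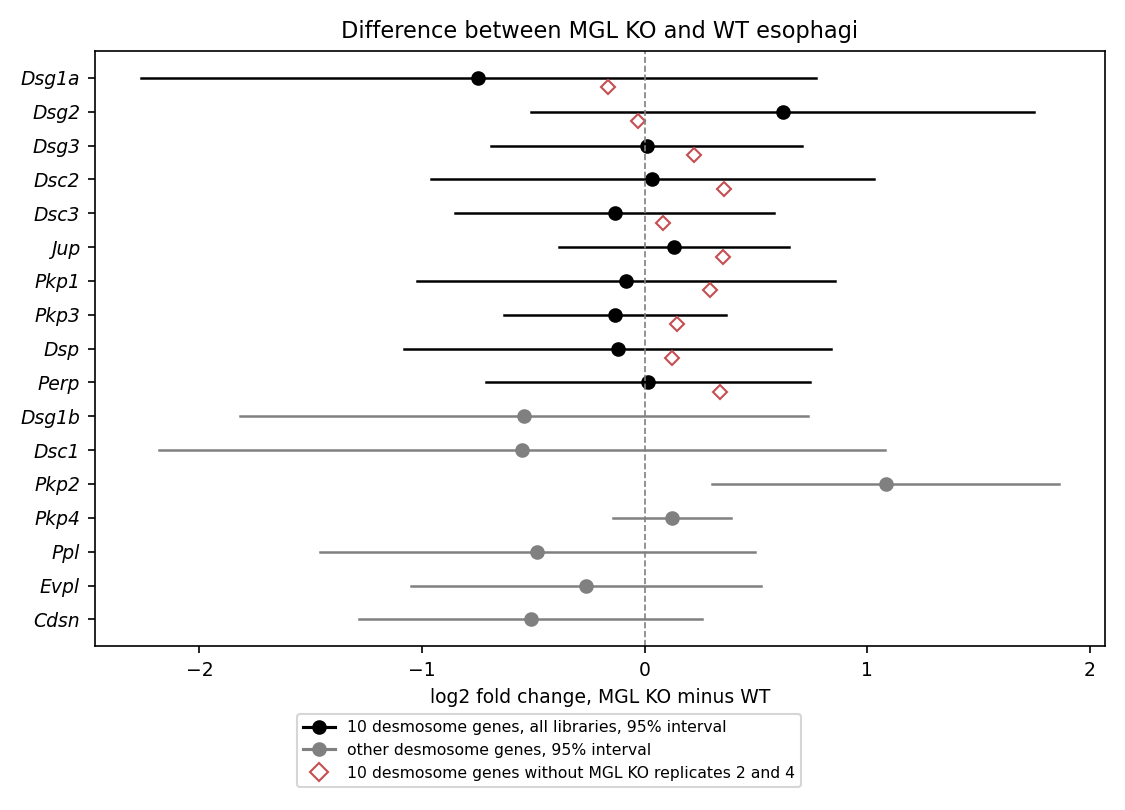
Log2 fold change of MGL KO over WT (horizontal axis) for the 10 desmosome genes (black) and 7 other desmosome genes (grey), with bars for the 95% interval from edgeR's quasi-likelihood fit and diamonds for the 10 genes without MGL KO replicates 2 and 4. All 10 black intervals cross 0, the widest being those of Dsg1a and Dsg2, and Pkp2 is the 1 grey gene whose interval does not. The fit behind the diamonds kept WT replicate 3, the low WT library.

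Promoter sequences are shown as examples for Dsp, the link to keratin, and Perp, the most abundant of the 10 genes per length. They hold the 250 bases before the start of the canonical transcript (GENCODE release M39 on GRCm39) and lie outside the gene. The windows, each 5′ to 3′ on the gene's strand, are chr13:38334980-38335229 (plus strand) for Dsp and chr10:18720465-18720714 (plus strand) for Perp. Capitals mark each GC box (GGGCGG) on either strand.
Dsp: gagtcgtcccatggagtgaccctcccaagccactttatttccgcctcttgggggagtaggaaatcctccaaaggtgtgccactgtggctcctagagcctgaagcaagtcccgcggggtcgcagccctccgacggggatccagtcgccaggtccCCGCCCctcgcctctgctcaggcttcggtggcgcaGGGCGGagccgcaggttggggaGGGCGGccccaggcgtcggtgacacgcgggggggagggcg
Perp: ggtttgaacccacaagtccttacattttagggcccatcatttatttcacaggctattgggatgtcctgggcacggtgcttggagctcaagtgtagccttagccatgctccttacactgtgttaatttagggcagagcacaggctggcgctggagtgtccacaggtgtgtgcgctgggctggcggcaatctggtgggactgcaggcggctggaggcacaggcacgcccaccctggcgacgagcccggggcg
The Dsp window held 3 GC boxes, at -97, -62 and -40 from the start, and the Perp window held 0. GC content was 68.8% for Dsp and 59.2% for Perp. Over 9 of the 10 desmosome genes, leaving out Pkp1, 5 windows held a GC box, against 36.29% of 21730 promoters of the same length. Unlike those of Dsp and Perp, the windows of Jup and Pkp3 lie inside the annotated gene, and that of Dsc3 nearly all inside. Each of these windows is among the 5 with a GC box. A TATA box (TATAAA) was in 0 of 9 windows and in 11.92% of all promoters, an AP-1 motif (TGANTCA) in 0 of 9 and in 6.18%, and a GRHL motif (AACCNGTT) in 0 of 9 and in 1.79%. A match is a description of the letters, and no match says only that these letters are not in the window.

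Compared per kilobase of canonical transcript, the 10 genes covered a wide range of levels. In WT, Perp stood highest at 134 ± 42.1 CPM per kb, and its lowest library, at 83.5, lay above the highest Jup library, at 79.1. Jup followed at 62.8 ± 13.9, Pkp1 at 55.4 ± 18.3, Pkp3 at 37.0 ± 5.47 and Dsp at 31.4 ± 10.5 CPM per kb. The cadherins came after these plaque genes, with Dsg3 at 15.9 ± 5.98, Dsc3 at 14.98 ± 5.26 and Dsc2 at 12.4 ± 6.04 CPM per kb. Far below stood Dsg1a at 1.88 ± 1.32 and Dsg2 at 1.34 ± 0.56 CPM per kb, whose highest libraries, at 3.85 and 2.10, lay under the lowest Dsc2 library, at 6.65. Apart from these gaps above Jup and below Dsc2, the WT ranges of neighbours in this order overlapped. The MGL KO order was the same except that Dsg2, at 2.06 ± 1.62, stood above Dsg1a, at 1.11 ± 0.84 CPM per kb, with overlapping ranges.

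The 10 genes varied more between libraries than most genes. The SD of log2 CPM over the 8 libraries had a median of 0.63 over the 10 against 0.29 over all kept genes, and 10 of 10 lay above that median. MGL KO replicate 2 was the lowest MGL KO library for 10 of 10 genes and WT replicate 3 the lowest WT library for 10 of 10. WT replicate 2 was the highest WT library for 9 of 10, the exception being Dsg2, and MGL KO replicate 1 was the highest MGL KO library for 8 of 10, the exceptions being Dsg2 and Dsp. The median log2 deviation of the 10 genes from each gene's mean over the 8 libraries was 0.45, -0.81, 0.10 and 0.15 in the MGL KO libraries and 0.11, 0.55, -0.68 and 0.12 in the WT libraries. These 2 low libraries are the ones with the lowest squamous and highest skeletal muscle sums.

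The depth of the dip differed from gene to gene. In MGL KO replicate 2, Dsg1a stood at 13.6% of the median of the other MGL KO libraries, Dsp at 24.8%, Pkp1 at 27.8% and Dsc2 at 36.2%, while Jup stood at 58.0%, Dsg3 at 60.8% and Dsg2 at 76.9%. In WT replicate 3, the lowest values against the other WT libraries were those of Dsc3, at 43.7%, and Dsg3, at 46.9%, and the highest was that of Pkp3, at 82.3%. Between the highest and the lowest of the 8 libraries, Dsg1a differed 24.2-fold, Dsg2 5.92-fold, Dsp 4.54-fold and Pkp1 4.24-fold, whereas Jup differed 1.93-fold and Pkp3 2.17-fold.

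**Figure D3:**
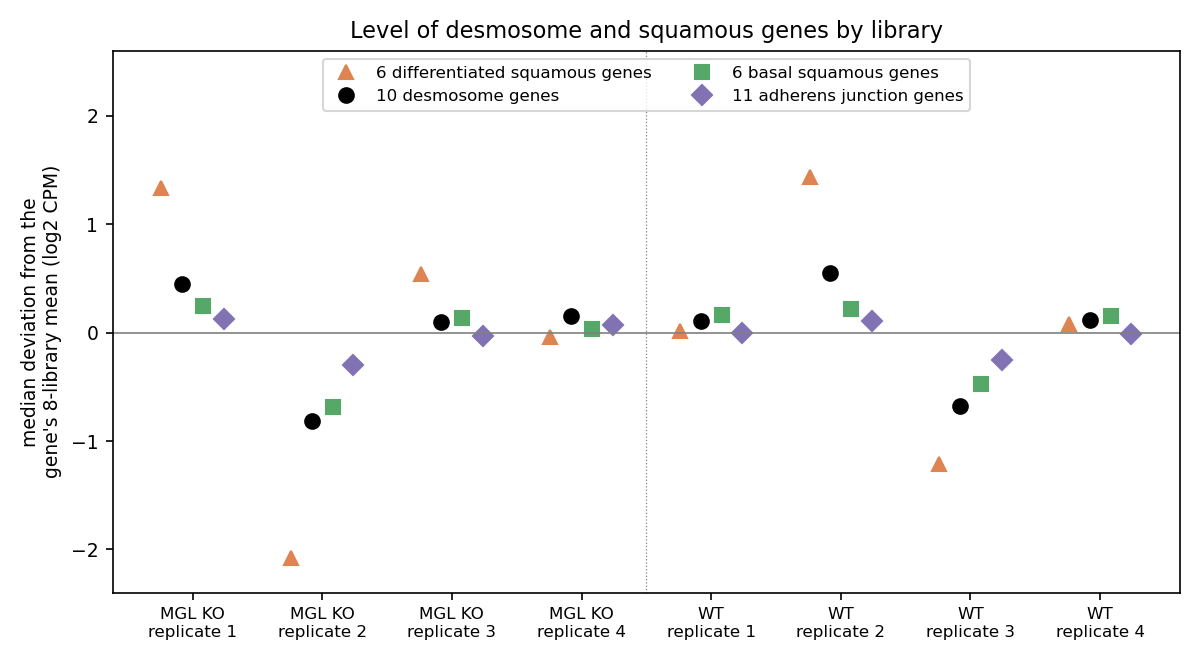
Median log2 deviation of 4 gene lists (vertical axis) in each of the 8 libraries (horizontal axis): the 10 desmosome genes, 6 basal squamous, 6 differentiated squamous and 11 adherens junction genes. All 4 lists dip in MGL KO replicate 2 and WT replicate 3, the differentiated genes most, at -2.08 and -1.21, and the adherens junction genes least, at -0.30 and -0.26.

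The basal squamous genes (Krt5, Krt14, Krt15, Itga6, Itgb4 and Col17a1) dipped in the same libraries, with median deviations of 0.25, -0.68, 0.13 and 0.03 in MGL KO and 0.16, 0.22, -0.48 and 0.15 in WT. Their rise in MGL KO replicate 1 and WT replicate 2 was smaller than that of the 10 desmosome genes, at 0.45 and 0.55. Taken relative to the mean log2 level of these genes, the spread of 10 of 10 desmosome genes shrank, by the greatest factor for Pkp3, from an SD of 0.36 to 0.10, for Jup, from 0.36 to 0.16, and for Perp, from 0.51 to 0.24. Relative to the mean of 6 differentiated squamous genes, the spread shrank for 4 of 10, among them Dsg1a, from 1.31 to 0.59, and grew for Jup to 0.94. The differentiated mean itself varied more, with an SD of 1.28 over the 8 libraries against 0.33 for the basal mean, and all these values share the same libraries, so they are a description without a test.

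**Figure D4:**
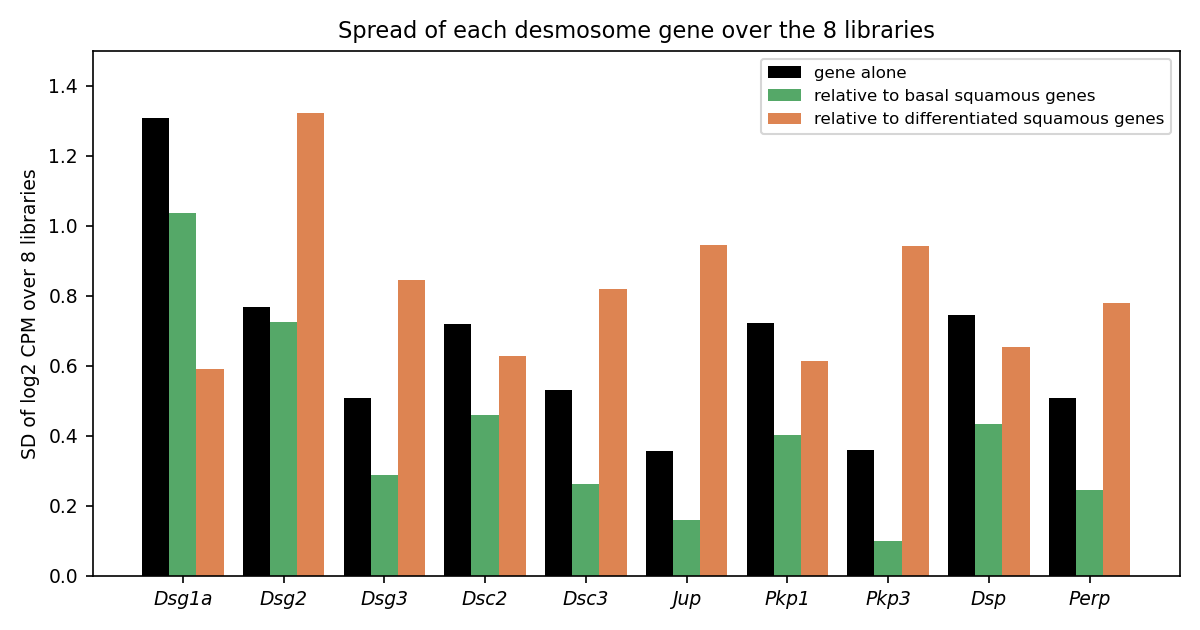
SD of log2 CPM over the 8 libraries (vertical axis) for each of the 10 desmosome genes, as measured, relative to the basal squamous mean and relative to the differentiated squamous mean. For 9 of 10 genes the SD relative to the basal mean is below that relative to the differentiated mean, and Dsg1a is the exception.

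Jup was the 1 gene of the 10 whose genotypes did not overlap once the basal mean was taken out. Its log2 level relative to that mean was -0.897, -0.903, -0.940 and -0.946 in the MGL KO libraries and -1.181, -0.952, -1.240 and -1.260 in the WT libraries. The groups did not overlap, but WT replicate 2, at -0.952, all but tied the lowest MGL KO library, at -0.946. Of all tested genes, 2.35% separated in this way in either direction. Before the basal mean was taken out, Jup overlapped (log2 fold change 0.13). The 6 basal genes had log2 fold changes from -0.46 for Col17a1 to 0.28 for Krt14, with 3 of 6 below 0. Their part in the separation was not tested. With the basal mean as a covariate in edgeR's quasi-likelihood fit, the log2 fold change of Jup was 0.24 (SE 0.10, unadjusted p = 0.0385, adjusted p = 0.422), so it was not called, and 1651 of 14864 genes had an unadjusted p under 0.05 in that fit. Dsg1a had a lower unadjusted p, 0.012, in the quasi-likelihood fit with the differentiated mean as covariate. It was not called either (log2 fold change -0.87, SE 0.27, adjusted p = 0.394).

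Ratios between partner genes asked whether the make-up of the junction differed between genotypes, for 6 pairs tested by a two-sided exact permutation test over 4 against 4 libraries, in which the smallest p is 0.0286. The widest difference was that of Dsg1a over Dsg3, an upper-layer against a lower-layer desmoglein. Its log2 ratio was -3.37, -6.08, -3.93 and -4.29 in MGL KO and -3.93, -2.67, -3.03 and -3.68 in WT, and the ranges overlapped. The means, -4.42 ± 1.17 and -3.33 ± 0.58, differed by -1.09 (exact permutation p = 0.114, adjusted p = 0.684 over the 6 pairs), and by -0.54 without MGL KO replicate 2 and -0.32 without replicates 2 and 4 both.

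The other 5 ratios were closer. Jup over Dsp differed by 0.36 between MGL KO and WT on the log2 scale, Perp over Dsp by 0.22, Dsg2 over Dsg3 by 0.39, Dsc2 over Dsc3 by 0.09 and Pkp1 over Pkp3 by -0.02, with exact permutation p between 0.314 and 0.857. Without MGL KO replicate 2, the differences were 0.081 for Jup over Dsp and 0.012 for Perp over Dsp, and that for Pkp1 over Pkp3 turned to 0.22. Without MGL KO replicate 4, the difference for Dsg2 over Dsg3 turned to -0.039, and without MGL KO replicate 1 that for Dsc2 over Dsc3 turned to -0.073. In MGL KO replicate 2, the log2 ratio of Pkp1 to Pkp3 was 0.49, the lowest of its group, and those of Jup and of Perp to Dsp were both 0.69, the highest of their groups.

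Another 9 genes of the desmosome or the cornified envelope were listed beside the 10, of which 7 could be tested. In edgeR's quasi-likelihood test, 0 of 7 were called and 1 had an unadjusted p under 0.05, against 0.0471% and 8.65% of all tested genes. That gene was Pkp2, the plakophilin of simple epithelia and heart. It had 7.41, 10.6, 5.61 and 15.5 CPM in MGL KO and 3.85, 3.37, 6.25 and 5.02 CPM in WT, with MGL KO replicate 3 inside the WT range and the highest value in MGL KO replicate 4 (log2 fold change 1.08, SE 0.34, 95% interval 0.31 to 1.86, adjusted p = 0.499). Without MGL KO replicate 4 the log2 fold change was 0.77, and without replicates 2 and 4 both it was 0.50. Dsc1 (log2 fold change -0.55, adjusted p = 0.827) and Dsg1b (-0.54, adjusted p = 0.784), both typical of upper layers, were sparse, Dsg1c had 0 counts in all 8 libraries, which by counting error alone allows at most 0.271 CPM in any library, though 29.6% of its windows also occur in another gene, and Dsg4, a hair follicle desmoglein, had at most 4 counts in a library.

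Periplakin (Ppl) and envoplakin (Evpl), plakins of the cornified envelope, and corneodesmosin (Cdsn) were not called either, with log2 fold changes of -0.48, -0.26 and -0.51, nor was Pkp4, an armadillo protein found at several kinds of junction, at 0.12 (SE 0.12, adjusted p = 0.770). Ppl had 279.7, 61.3, 274 and 226.5 CPM in MGL KO and 240.1, 439, 212 and 285 CPM in WT, with the low value again in MGL KO replicate 2 and a high one in WT replicate 2.

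Among 11 adherens junction genes, 0 were called in edgeR's quasi-likelihood test and 0 had an unadjusted p under 0.05, with a median log2 fold change of 0.04. The highest estimate was that of E-cadherin (Cdh1; 0.51, SE 0.46, adjusted p = 0.755), which ranged from 44.7 to 105 CPM in 7 libraries and reached 235 CPM in MGL KO replicate 4. The lowest was that of P-cadherin (Cdh3; -0.16, SE 0.16, adjusted p = 0.784). Among 10 transcription factors of stratified epithelia, 0 were called and 1 had an unadjusted p under 0.05, against 8.65% of all tested genes, namely Elf3, which ranged from 5.46 to 11.4 CPM in 7 libraries and reached 51.1 CPM in MGL KO replicate 4 (log2 fold change 1.62, SE 0.59, adjusted p = 0.523). The log2 fold change was 0.57 without that library and 0.74 without MGL KO replicates 2 and 4 both. MGL KO replicates 1 and 3, at 11.4 and 10.5 CPM, lay above the highest WT library, at 8.45 CPM, and replicate 2, at 7.22 CPM, lay below it. Grhl1, a grainyhead factor known to act on desmosomal cadherin genes, had 27.6, 7.85, 23.1 and 20.3 CPM in MGL KO and 27.4, 50.9, 19.6 and 27.2 CPM in WT, with overlap between the genotypes (log2 fold change -0.66, SE 0.39, adjusted p = 0.659). The 12 tested squamous marker genes gave 0 calls as well.

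On GRCm39 (GENCODE release M39) the 5 cadherin genes lie together on chromosome 18, Dsc3 at 20093987-20135408, Dsc2 at 20163675-20192717, Dsg1a at 20443868-20476407, Dsg3 at 20643331-20680516 and Dsg2 at 20691074-20737581, with the desmocollins on the minus strand and the desmogleins on the plus strand. In WT the levels of these neighbours per kilobase ran from 1.34 CPM for Dsg2 to 15.9 CPM for Dsg3. The other 5 are scattered, with Jup at chr11:100259784-100291103, Pkp1 at chr1:135799133-135846945, Pkp3 at chr7:140658040-140670423, Dsp at chr13:38335230-38382553 and Perp at chr10:18720715-18732821. Exons of Dsg1a, Dsg2, Dsg3, Pkp3 and Dsp overlap a gene on the opposite strand, and the use of strand in the counting is not given in the sources used here, so reads of those partners may be included.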

How the data were processed

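RNA of frozen mouse esophagus was sequenced in 4 MGL KO and 4 WT libraries, grouped by the genotype in the sample labels. Per the labels and the submitters' processing notes, the authors selected poly(A) RNA, checked the reads with FastQC 0.11.9, trimmed them with cutadapt and aligned them with STAR 2.7.10b to GRCm39. They deposited whole-number counts per gene symbol, without normalization. The annotation and counting tool are not given in the sources used here.

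Totals lay between 13479069 and 17090152 counts per library, and a count of 0 allows up to 3 counts, which come to between 0.167 and 0.271 CPM (counting error only). Of 22721 symbols with a count, 14864 were kept by filterByExpr at a minimum count of 10. CPM were scaled by TMM factors (0.823 to 1.11). Genotypes were compared over all kept genes with the quasi-likelihood test of edgeR 4.0.16 in R 4.3.3, with Benjamini-Hochberg adjustment at 0.05. Standard errors were taken as |log2 fold change| / √F. Ratios used log2 CPM with a prior count of 0.5. Alternatives were edgeR's exact test, the one named in the study's methods, DESeq2 1.42.0, limma 3.58.1 (voom with quality weights), a robust fit, other scalings and filters, covariates, a replicate block and leaving out libraries. Levels per kilobase used the canonical transcript of GENCODE M39. The promoter of 1 gene is not reported here.

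The 10 genes and the lists (other desmosome genes, adherens junction genes, epithelial transcription factors, squamous markers and markers of other tissues) were chosen with earlier results of these data known. Named genes were the 10, the other desmosome genes, and the gene with the highest and lowest log2 fold change of the adherens junction, transcription factor and squamous lists. Mgll was named as the targeted gene, and Krt8, Pax8, Xist, Rhcg and Crnn were named after their values were seen. Krt14 and Col17a1 were these for the basal list (0.28, adjusted p = 0.734, and -0.46, adjusted p = 0.627) and Tgm3 and Cnfn for the differentiated list (0.23, adjusted p = 0.886, and -0.14, adjusted p = 0.973). Of the markers of other tissues, 4 thyroid genes summed to between 0.261 and 6.14 CPM, 6 airway ciliated genes to at most 19.8 CPM outside MGL KO replicate 4, 5 smooth muscle genes to between 954 and 1991 CPM, 4 endothelial genes to between 123 and 242 CPM and 4 adipocyte genes to between 59.0 and 500.5 CPM. Mean log2 CPM of 4 Y-linked genes lay between 5.29 and 5.51 in all 8 libraries.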

Additional observations from a re-analysis of the deposited data

Results flagged for a closer look

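Of 86 groups of 4 libraries compared, 11 held a library far from the other 3 of its genotype. Chance flags about 1 in 20 such groups, or 4.3 of 86, were they independent, but these share 8 libraries and include marker lists chosen with earlier results known, so the counts are not comparable. Values set beside each are those of the next library of the same genotype. Among the 10 desmosome genes, Dsg1a was high in WT replicate 2, at 21.9 CPM against 8.15 in the next library, and Dsg2 was high in MGL KO replicate 4, at 26.1 against 8.45 CPM. The log2 ratio of Pkp1 to Pkp3 was low in MGL KO replicate 2, at 0.492 against 1.41 in the next library.

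Beyond them, Dsc1 was high in WT replicate 2, at 9.65 against 3.39 CPM, and Elf3 in MGL KO replicate 4, at 51.1 against 11.4 CPM. The sum of the basal squamous genes was low in WT replicate 3, at 3194 against 4633 CPM. MGL KO replicate 4 was high in the sums of the airway secretory genes, at 8385 against 50.8 CPM, of the airway ciliated genes, at 543 against 19.8 CPM, of the cardiac muscle genes, at 1776 against 70.1 CPM, and of the simple epithelium genes, at 481 against 84.5 CPM. The thyroid genes summed to 4.74 CPM in WT replicate 1 against 0.685 CPM in the next WT library.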

How the results depend on the processing

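Of the 10 desmosome genes, 0 were called under every alternative run, which called between 2 and 138 genes in all, and the lowest adjusted p was 0.394, for Dsg1a with the differentiated squamous mean as a covariate (log2 fold change -0.87). In that quasi-likelihood fit of edgeR, the SE of Dsg1a was 0.27 and its unadjusted p 0.012. An unadjusted p under 0.05 was found there for 1530 of 14864 genes. Dsg1a stayed below 0 and Jup above 0 in all alternatives, while the other 8 changed sign in at least 1 of them, Dsg2 (0.62) included. Without MGL KO replicates 2 and 4 both, which was chosen after seeing the data and kept the low WT replicate 3, Dsg2 was -0.028, Dsc3 0.081, Pkp1 0.29, Pkp3 0.15 and Dsp 0.12. In that setting the log2 ratio differences were -0.25 for Dsg2 over Dsg3, 0.20 for Pkp1 over Pkp3 and -0.32 for Dsg1a over Dsg3. With upper quartile scaling Dsg3 was -0.009 and Perp -0.003, and with library size alone -0.024 and -0.0096. With the basal squamous mean as a covariate Dsc3 was 0.052, Pkp1 0.057 and Dsp 0.036, and with the Y-linked mean Dsc3 was 0.13, Pkp1 0.17, Pkp3 0.0076 and Dsp 0.15. Leaving out each library in turn gave log2 fold changes from -0.10 to 0.92 for Dsg2, -0.21 to 0.22 for Dsg3, -0.31 to 0.41 for Dsc2, -0.35 to 0.061 for Dsc3, -0.29 to 0.21 for Pkp1, -0.27 to 0.049 for Pkp3, -0.32 to 0.18 for Dsp and -0.24 to 0.23 for Perp, and ratio differences from -0.039 to 0.60 for Dsg2 over Dsg3, -0.073 to 0.22 for Dsc2 over Dsc3, -0.19 to 0.22 for Pkp1 over Pkp3, -1.44 to -0.54 for Dsg1a over Dsg3, 0.081 to 0.52 for Jup over Dsp and 0.012 to 0.40 for Perp over Dsp. The cause was not tested. With a replicate block, 0 of the 10 and 2 of all 14864 genes were called, and Perp was -0.00057. Libraries of the same number did not deviate together, with correlations over 14864 genes of -0.13, -0.277, -0.134 and 0.084. These values cannot show whether libraries of the same number shared a litter or a batch, which the labels do not give. The 95% intervals limit what 4 libraries can show, most for the sparse Dsg1a and Dsg2.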
